A study of Mus musculus with 6 samples.

Results

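Killer lectin-like receptors other than the Ly49 group were followed in RNA-seq of thymic iNKT1 cells with and without a conditional deletion of Tgfbr2, a receptor subunit for TGF-beta. The receptors were 8 genes taken by symbol from the Klrb, Klrc, Klrd, Klre, Klrg and Klrk groups, out of 17985 genes in the table: Klrb1c, Klrb1b, Klrc1, Klrc2, Klrd1, Klre1, Klrg1 and Klrk1. The 8 genes were chosen with earlier results of these data known, so the shares of them given below do not come from a blind choice. Levels are in CPM, reads scaled to a common library size. The level set for testing was an average of 1 CPM over the libraries, which 15691 genes reached, all 8 receptors among them.

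Invariant natural killer T (iNKT) cells are T cells with a nearly fixed antigen receptor that recognises lipids on CD1d, and iNKT1 cells are the subset that expresses T-bet and makes interferon gamma. The cells came from the thymus of untreated C57BL/6-background mice. Control animals (Ctrl, 3 libraries) had the genotype Tbx21CreTg;Rosa26-LSL-YFP+/+, a Cre transgene driven by Tbx21 (the gene of T-bet) together with a yellow fluorescent reporter that Cre switches on. The conditional knockout group (cKO, 3 libraries) had the same transgene and reporter and also Tgfbr2F/F, Tgfbr2 alleles that Cre can cut. Both groups thus carried Cre, and deletion was limited to cells that had expressed the Tbx21 transgene. Age, sex and how the cells were isolated are not given in the sources used here. The libraries are described as independent replicates without saying of what, so p-values measure the spread between these libraries.

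Killer lectin-like receptors are type II membrane proteins of the C-type lectin family, encoded in the natural killer gene complex and carried by NK cells, iNKT1 cells and some effector T cells. CD94 (Klrd1) pairs with NKG2A (Klrc1) into an inhibitory receptor, or with NKG2C (Klrc2) into an activating one, and both read the non-classical class I molecule Qa-1 (H2-T23). NKG2D (Klrk1) activates on stress-induced ligands, some of the NKR-P1 receptors (Klrb1 genes) read Clec2 proteins, and KLRG1 inhibits on binding cadherins. NK1.1, the product of Klrb1c, is widely used as a marker of mature iNKT1 cells.

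On mm10, 7 of the 8 genes lay within 900489 bases of chromosome 6, from 128778485 to 129678973. In order these were Klrb1c (ENSMUSG00000030325, chr6:128778485-128789215, minus strand), Klrb1b (ENSMUSG00000079298, chr6:128813706-128826331, minus), Klre1 (ENSMUSG00000050241, chr6:129577893-129585824, plus), Klrd1 (ENSMUSG00000030165, chr6:129591782-129598775, plus), Klrk1 (ENSMUSG00000030149, chr6:129610323-129623864, minus), Klrc2 (ENSMUSG00000052736, chr6:129647496-129660689, minus) and Klrc1 (ENSMUSG00000030167, chr6:129666015-129678973, minus). Klrg1 (ENSMUSG00000030114, chr6:122270596-122282882, minus) lay apart on the same chromosome.

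Klrc1 and Klrc2 are related genes with opposite signalling, and their sequences are shown because their levels depend on reads being told apart between them. The first 120 coding bases, from GENCODE transcripts on GRCm38, encode the start of the cytoplasmic tail. Capitals mark bases that are changed or have no partner in the alignment of both coding sequences.
Klrc1: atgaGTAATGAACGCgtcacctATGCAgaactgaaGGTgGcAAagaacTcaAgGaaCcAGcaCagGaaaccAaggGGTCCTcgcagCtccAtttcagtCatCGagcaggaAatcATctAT
Klrc2: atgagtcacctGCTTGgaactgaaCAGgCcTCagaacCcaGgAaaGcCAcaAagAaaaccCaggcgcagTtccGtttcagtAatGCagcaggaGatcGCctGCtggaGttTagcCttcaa
Over 732 aligned positions the coding sequences were 78.3% identical. They ended in the same 100 bases, positions 582 to 681 of Klrc1 and 615 to 714 of Klrc2 counted from the first coding base. That run is longer than the 75-base reads:
shared end: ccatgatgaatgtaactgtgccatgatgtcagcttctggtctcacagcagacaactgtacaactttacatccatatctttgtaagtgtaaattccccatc
Of all 75-base windows in the transcripts of Klrc1, 25.01% also occurred in Klrc2 or Klrc3, and for Klrc2 11.3% occurred in Klrc1 or Klrc3. Reads from those windows cannot be assigned to a single gene, so the levels of Klrc1 and Klrc2 carry that uncertainty. Klrb1b and Klrb1c shared 24.5% and 13.2% of their windows with other genes, mostly with Gm44511, an annotated protein-coding gene on the same strand that overlaps exons of both. Klrd1, Klre1, Klrg1 and Klrk1 shared no window with another gene.

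RefSeq promoter sequences (GRCm38.p6, 250 bases before to 50 after the start) matched 6 of the 8 genes. Klrg1 and Klrd1 had no entry. They were searched on both strands for 4 short motifs: RUNX (TGTGGT), T-box (AGGTGT), SMAD (CAGACA) and ETS (GGAAGT). The promoters of Klre1, Klrk1 and Klrc1 are shown, each 5′ to 3′ in the direction of its gene, because cKO was above Ctrl at every replicate number for these genes and a RUNX match, given in capitals, is the only match in each (ACCACA is the same motif on the opposite strand).
Klre1, chr6:129577963-129578262, plus strand: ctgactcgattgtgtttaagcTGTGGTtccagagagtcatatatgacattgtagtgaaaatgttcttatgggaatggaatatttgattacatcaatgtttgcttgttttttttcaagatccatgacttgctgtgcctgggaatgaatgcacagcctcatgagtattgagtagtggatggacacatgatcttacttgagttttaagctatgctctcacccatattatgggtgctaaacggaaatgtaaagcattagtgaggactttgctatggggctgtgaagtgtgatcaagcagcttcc
Klrk1, chr6:129623815-129624114, minus strand: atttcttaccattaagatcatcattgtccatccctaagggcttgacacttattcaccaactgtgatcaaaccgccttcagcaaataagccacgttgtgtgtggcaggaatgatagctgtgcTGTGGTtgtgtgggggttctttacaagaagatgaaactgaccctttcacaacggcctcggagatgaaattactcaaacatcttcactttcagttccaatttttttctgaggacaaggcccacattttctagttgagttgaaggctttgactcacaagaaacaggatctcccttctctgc
Klrc1, chr6:129678924-129679223, minus strand: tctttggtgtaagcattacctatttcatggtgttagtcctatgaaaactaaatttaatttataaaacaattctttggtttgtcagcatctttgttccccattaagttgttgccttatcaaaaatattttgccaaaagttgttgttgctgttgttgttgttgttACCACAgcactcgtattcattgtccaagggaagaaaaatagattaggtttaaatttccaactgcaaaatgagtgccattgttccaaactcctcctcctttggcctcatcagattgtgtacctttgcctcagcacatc
A RUNX match was present in 5 of the 6 promoters and in 16.8% of 32851 promoters of the same length. The 5 included Klrc2, whose level had no consistent direction. Klrb1b had no RUNX match, although cKO was above Ctrl at every replicate number. The promoters shown were picked by their result, and a link of RUNX matches to higher levels was not tested. SMAD matches were present in 3 of the 6 (21.0% of all), ETS matches in 2 (23.8%) and T-box matches in none (13.7%). No matches overlapped. A match is a string of letters and not a measured binding site.

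The libraries held between 28832779 and 68092478 reads, and 1 read stood for 0.0147 to 0.0347 CPM. Both replicate 3 libraries stood apart, with 4406 and 4590 genes listed at 0 against at most 5 in the other 4, and the first principal component (85.1% of the variance) separated them. Each replicate number occurred once per group. Same-numbered libraries deviated together, although Ctrl replicate 2 correlated slightly better with cKO replicate 1 (0.718) than with cKO replicate 2 (0.687). A fit with the replicate number as a block is given beside the main fit where it changes a call. Values are listed in the order of replicates 1, 2 and 3. Tgfbr2 itself was at 461, 461 and 425 CPM in Ctrl and at 289.8, 257.6 and 274 CPM in cKO (limma adjusted p = 0.0207). In edgeR's quasi-likelihood test it did not pass without the block (adjusted p = 0.0620) and passed with it (0.00177). The authors' deposited adjusted p for Tgfbr2 was 0.373. The labelled cell type had its markers, with the 8 iNKT1 genes summing to 6300 to 7659 CPM in Ctrl and 6808 to 9319 CPM in cKO. The 5 T cell and iNKT receptor markers in the table summed to 4634 to 5345 CPM in Ctrl and 4029 to 5560 CPM in cKO. Of conventional NK cell markers, Ncr1 was at 0.617 to 2.28 CPM and Eomes at 0.0441 to 1.39 CPM over all 6 libraries. These were the low ones of the 6 listed. Together the 6 summed to 391 to 492 CPM in Ctrl and 314 to 430.3 CPM in cKO, mostly from Gzma and Prf1.

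None of the 8 receptors passed the main test, limma on log2(CPM + 1) with p-values adjusted by Benjamini-Hochberg across every tested gene and a threshold of 0.05, which called 0.663% of all tested genes. At an unadjusted p below 0.05, limma counted 4 of the 8 (Klrc1, Klre1, Klrg1 and Klrk1), against 6.02% of all tested genes. With the replicate block limma called 2, Klre1 and Klrg1, both higher in cKO, where it called 2.87% of all tested genes and 1.24% as higher. On recovered reads, edgeR's quasi-likelihood test called 0 of the 8 without the block (0.261% of tested genes) and 2 with it, Klre1 and Klrk1, both higher (1.46% called higher). DESeq2 called Klre1 and Klrg1 as higher without the block (2.21% called higher) and Klre1, Klrg1 and Klrk1 with it (2.84%). At each of the 3 replicate numbers cKO was above Ctrl for 6 receptors, against 11.5% of tested genes: Klrb1c, Klrb1b, Klrc1, Klre1, Klrg1 and Klrk1. The groups did not overlap for 4 of them, Klrb1b, Klrc1, Klre1 and Klrg1, with cKO higher, against 3.89% of tested genes. The median log2 difference of the 8 was 0.60, and that of all tested genes was -0.038. In bulk RNA, more cells bearing a receptor and more RNA per cell cannot be told apart.

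**Figure D1:**
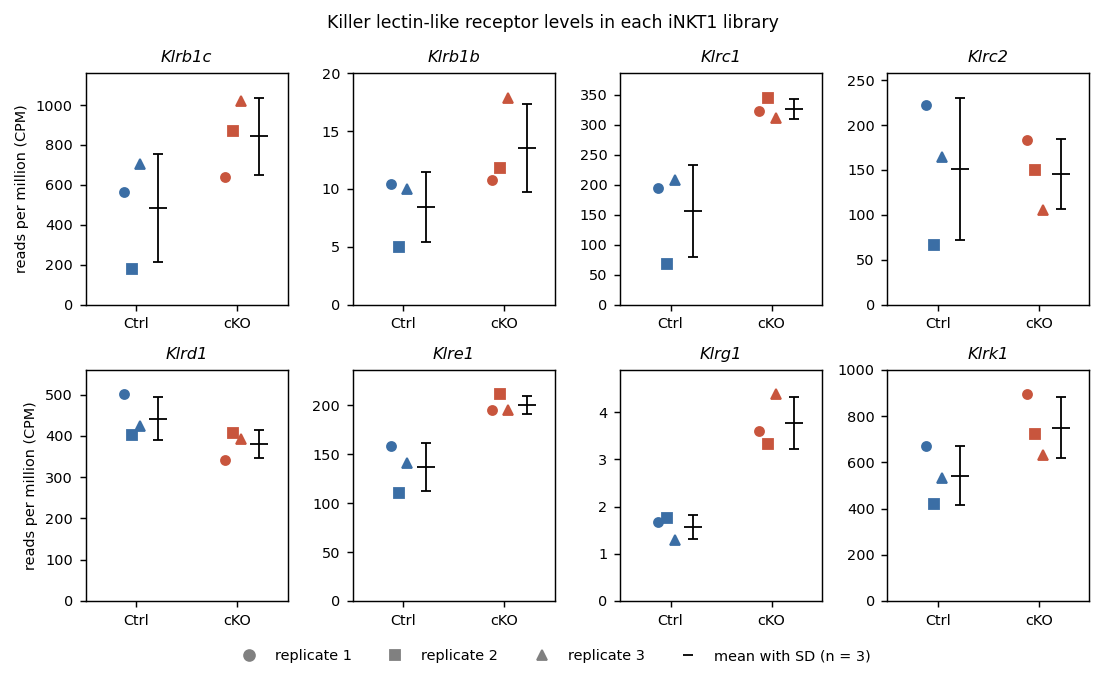
Level of each receptor gene in CPM (vertical axes, starting at 0) in the 3 Ctrl and 3 cKO libraries, with point shapes for replicate numbers and bars for the mean with SD (n = 3). Ctrl replicate 2 is the lowest Ctrl point for Klrb1c (179.9 CPM), Klrb1b, Klrc1 (67.0 CPM), Klrc2, Klrd1, Klre1 and Klrk1, and all Klre1 and Klrg1 values of cKO sit above all Ctrl values.

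CD94, the common partner of the NKG2A and NKG2C chains, did not pass in either fit. Klrd1 was at 500.3, 402 and 424 CPM in Ctrl and at 343, 406 and 393 CPM in cKO. The groups overlapped, with cKO replicate 2 above Ctrl replicate 2. The means were 442 ± 51.8 CPM (SD, n = 3) in Ctrl and 381 ± 33.5 CPM (SD, n = 3) in cKO, a log2 difference of -0.21 (SE 0.12, 95% interval -0.49 to 0.062, limma adjusted p = 0.99998).

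NKG2A, the inhibitory partner, did not pass with all libraries in either fit, although its mean log2(CPM + 1) difference was the largest of the 8 there. The ratio of mean CPM was larger for Klrg1 (2.41) than for Klrc1 (2.09). Klrc1 was at 194, 67.0 and 207 CPM in Ctrl and at 324, 345 and 312 CPM in cKO. Every cKO library was above every Ctrl library, and the Ctrl libraries were spread more widely than the cKO libraries. The means were 156 ± 77.4 CPM (SD, n = 3) and 327 ± 16.8 CPM (SD, n = 3), a log2 difference of 1.22 (SE 0.41, 95% interval 0.25 to 2.20, limma adjusted p = 0.590). The difference was 2.35 in pair 2, which holds Ctrl replicate 2, and 0.74 and 0.59 in pairs 1 and 3. Without Ctrl replicate 2 it was 0.70. In replicates 1 and 3 alone with the block, a fit added after the data were seen, it was 0.66 and passed (limma adjusted p = 0.00430), where 0.943% of tested genes were called higher. It did not pass with the block in replicates 1 and 2 (0.729), in replicates 2 and 3 (0.544) or in all libraries (0.221), nor in replicates 1 and 3 without the block (0.704).

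NKG2C, the activating partner, had no consistent direction. Klrc2 was at 223, 66.2 and 164 CPM in Ctrl and at 183, 149.5 and 105 CPM in cKO. The groups overlapped widely, and the pair differences were -0.28, 1.16 and -0.63. The log2 difference was 0.082 (SE 0.44, 95% interval -0.98 to 1.14, limma adjusted p = 0.99998), and without Ctrl replicate 2 it was -0.42.

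Ratios within a library compare the chains without regard to scaling. The ratio of Klrc1 to Klrc2 reads was 0.870, 1.01 and 1.26 in Ctrl and 1.77, 2.31 and 2.96 in cKO, so that all 3 cKO libraries were above all 3 Ctrl libraries, Ctrl replicate 2 included. The ratio of Klrc1 to Klrd1 was 0.387, 0.167 and 0.489 in Ctrl and 0.944, 0.849 and 0.792 in cKO. Groups were separate for that ratio too. For Klrc2 to Klrd1 the ratios were 0.446, 0.165 and 0.387 in Ctrl and 0.534, 0.368 and 0.268 in cKO, and they overlapped. An exact two-sided permutation test gave p = 0.1 for each of the first 2 ratios, the smallest that 3 libraries against 3 allow, and p = 0.7 for the last. In all 7 ratios were compared. After Benjamini-Hochberg adjustment over the 7, the values were 0.14 and 0.7, so none passed.

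**Figure D2:**
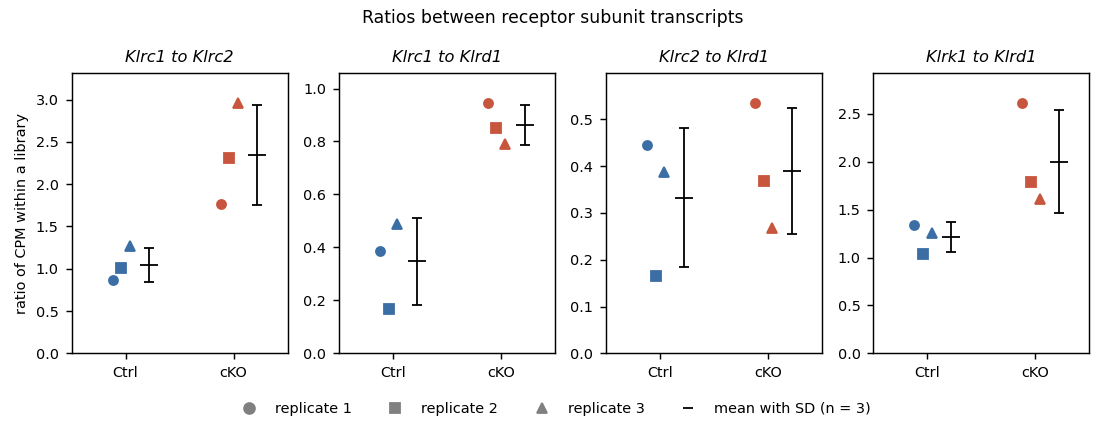
Ratio of CPM between receptor subunit genes within each library (vertical axes, starting at 0), for 3 Ctrl and 3 cKO libraries with the mean and SD (n = 3). The ratio of Klrc1 to Klrc2 lies between 0.870 and 1.26 in Ctrl and between 1.77 and 2.96 in cKO, whereas that of Klrc2 to Klrd1 overlaps between groups.

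Klre1, an NK receptor that dimerises with KLRI1 or KLRI2, rose in cKO in the fit with the block. It was at 159, 111 and 141 CPM in Ctrl and at 195, 211 and 195 CPM in cKO. No cKO library was as low as any Ctrl library. The means were 137 ± 24.3 CPM (SD, n = 3) and 201 ± 9.31 CPM (SD, n = 3), a log2 difference of 0.56 (SE 0.14, 95% interval 0.23 to 0.89). The limma adjusted p was 0.291 without the block and 0.0494 with it. Without Ctrl replicate 2 the difference was 0.42, and in replicates 1 and 3 alone with the block it was 0.38 and did not pass (limma adjusted p = 0.249), nor did it in replicates 1 and 2 alone (0.0813). The ratio of Klre1 to Klrd1 was 0.317, 0.276 and 0.334 in Ctrl and 0.571, 0.520 and 0.495 in cKO. There was no overlap (exact permutation p = 0.1, the smallest possible, adjusted 0.14 over the 7 ratios). The dimer partners were at low or uneven levels: Klri1 ran from 0.981 to 1.35 CPM over the 6 libraries, and Klri2 from 5.004 to 51.2 CPM.

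NKG2D differed by a similar amount and missed the threshold with the block by a narrow margin. Klrk1 was at 672, 418 and 533 CPM in Ctrl and at 894, 724 and 633 CPM in cKO. The groups overlapped only in that cKO replicate 3 lay below Ctrl replicate 1. The means were 541 ± 128 CPM (SD, n = 3) and 750.1 ± 132 CPM (SD, n = 3), a log2 difference of 0.48 (SE 0.20, 95% interval 0.0059 to 0.96). The limma adjusted p was 0.811 without the block and 0.05003 with it. With the block, edgeR's quasi-likelihood test gave an adjusted p of 0.0191 and DESeq2 0.000236. Without Ctrl replicate 2 the difference was 0.31. Hcst, the adaptor DAP10 through which NKG2D signals, was at 256, 259 and 233 CPM in Ctrl and 258, 243 and 219 CPM in cKO. The ratio of Klrk1 to Hcst was 2.63, 1.61 and 2.28 in Ctrl and 3.47, 2.98 and 2.89 in cKO. Here too the groups did not overlap (exact permutation p = 0.1, the smallest possible, adjusted 0.14 over the 7 ratios).

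KLRG1, an inhibitory receptor of antigen-experienced T cells and mature NK cells, rose in cKO in the fit with the block, from a low level. Klrg1 was at 1.67, 1.75 and 1.28 CPM in Ctrl (56, 54 and 68 reads) and at 3.61, 3.33 and 4.38 CPM in cKO (104, 140 and 298 reads). All cKO values exceeded all Ctrl values. The means were 1.57 ± 0.250 CPM (SD, n = 3) and 3.77 ± 0.542 CPM (SD, n = 3), a 2.41-fold ratio. The log2(CPM + 1) scale, on which changes at this level come out smaller, gave a difference of 0.89 (SE 0.37, 95% interval 0.0060 to 1.78), and the limma adjusted p was 0.822 without the block and 0.0403 with it. With the block, edgeR's quasi-likelihood test gave 0.0670, short of the threshold. Ctrl replicate 2 was not low for this gene, and without it the difference was 0.95. With the block, Klrg1 passed in replicates 1 and 3 alone (limma adjusted p = 0.0137) but not in replicates 1 and 2 (0.128) or 2 and 3 (0.0885).

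NK1.1 and NKR-P1B, an activating and an inhibitory NKR-P1 receptor, did not pass in either fit. Klrb1c was at 566, 179.9 and 703 CPM in Ctrl and at 639.8, 870.0 and 1021 CPM in cKO, so that cKO replicate 1 lay within the Ctrl range. The means were 483 ± 271 CPM (SD, n = 3) and 844 ± 192 CPM (SD, n = 3), and the log2 difference was 0.99 (SE 0.50, 95% interval -0.19 to 2.18, limma adjusted p = 0.99998). Pair 2 differed by 2.27 and pairs 1 and 3 by 0.18 and 0.54. Without Ctrl replicate 2 the difference was 0.39. Klrb1b was at 10.4, 4.94 and 9.99 CPM in Ctrl and at 10.8, 11.8 and 17.9 CPM in cKO, with no overlap but a narrow gap between the groups. Its log2 difference was 0.65 (SE 0.32, 95% interval -0.12 to 1.41, limma adjusted p = 0.9998), and 0.34 without Ctrl replicate 2.

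**Figure D3:**
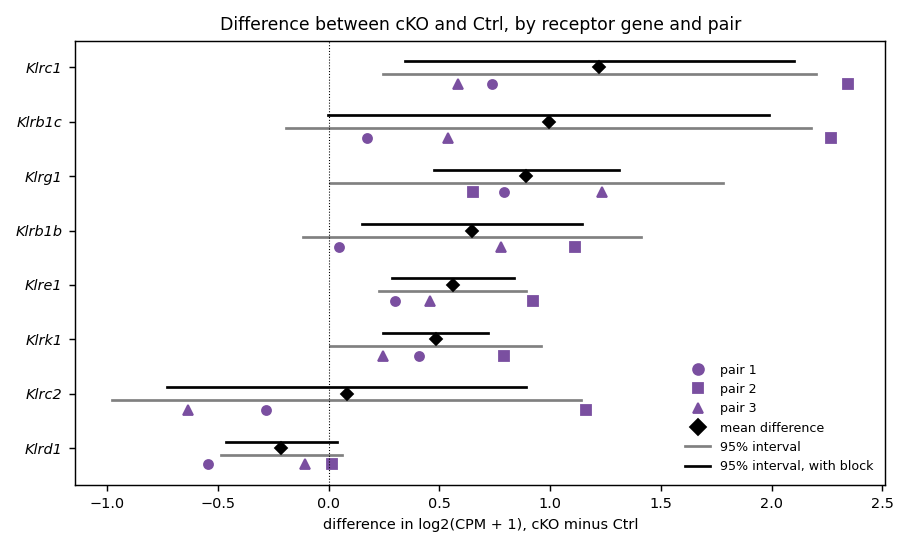
Log2 difference, cKO minus Ctrl, of log2(CPM + 1) for each receptor (horizontal axis, 0 dotted): diamonds are means, grey and black bars are 95% intervals without and with the replicate block, and purple points are the 3 same-numbered pairs. Pair 2 lies at 2.35 for Klrc1 and 2.27 for Klrb1c, far right of pairs 1 and 3, while the 3 pairs of Klrg1 lie between 0.65 and 1.23.

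Ctrl replicate 2 was low for most of these receptors. Against the mean of Ctrl replicates 1 and 3 on the log2 scale, its difference was -1.81 for Klrb1c, -1.57 for Klrc1, -1.52 for Klrc2, -0.92 for Klrb1b, -0.52 for Klrk1, -0.43 for Klre1, -0.20 for Klrd1 and 0.16 for Klrg1. The median of all tested genes was 0.083. Over the table, 33 of the 15691 tested genes (0.210%) were at least 1 log2 unit lower in this library, a count made after its values were seen. Of those 33, 9 were Klr genes (27.3% of the 33, and 34.6% of the 26 Klr genes tested): Klrb1c, Klrc1, Klrc2, Klri2, Klra3, Klra7, Klra9, Klra10 and Klra13-ps. Whether this library sets the differences of Klrb1c, Klrb1b and Klrc1 was not tested beyond leaving it out.

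**Figure D4:**
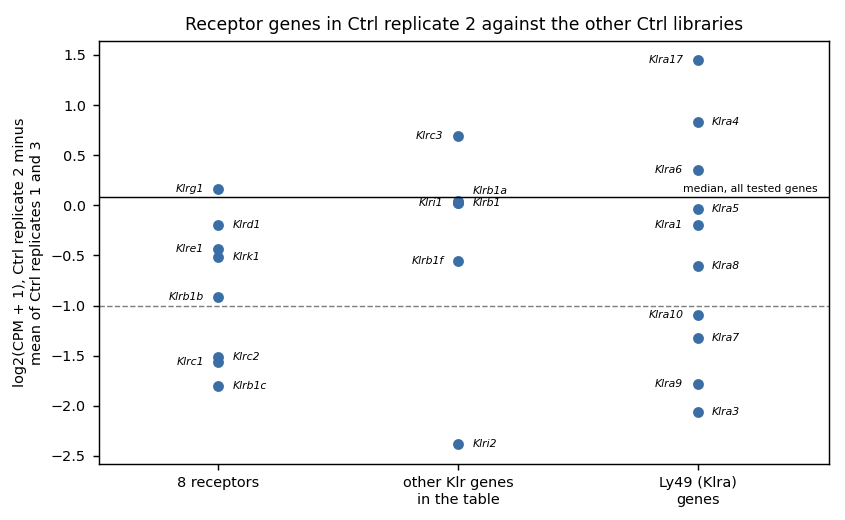
Difference in log2(CPM + 1) between Ctrl replicate 2 and the mean of Ctrl replicates 1 and 3 (vertical axis) for the 8 receptors, the other Klr genes in the table and the Ly49 genes; the solid line is the median of all tested genes (0.083) and the dashed line is 1 log2 unit lower. Klrb1c, Klrc1 and Klrc2 lie below the dashed line with Klri2 and 4 Ly49 genes, while Klrg1 lies above the median.

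Set on a common scale of CPM per kilobase of annotated exon, the Ctrl level was highest for Klrd1 (345 ± 40.4, SD, n = 3), followed by Klrb1c (163 ± 91.7), Klrc1 (78.7 ± 39.0), Klrk1 (75.3 ± 17.8), Klre1 (39.2 ± 6.95), Klrc2 (26.0 ± 13.6), Klrb1b (3.79 ± 1.37) and Klrg1 (1.11 ± 0.177). Among neighbours in this order, Klrb1c and Klrc1 had overlapping SDs, as did Klrc1 and Klrk1, and Klre1 and Klrc2. Both genes of such a pair were measured in the same libraries. Overlapping SDs therefore do not show whether their levels differ, which was not tested. In cKO the order was Klrd1 (297 ± 26.2), Klrb1c (285 ± 64.8), Klrc1 (165 ± 8.45), Klrk1 (104 ± 18.4), Klre1 (57.4 ± 2.66), Klrc2 (25.1 ± 6.69), Klrb1b (6.07 ± 1.71) and Klrg1 (2.67 ± 0.383), and only Klrd1 and Klrb1c were neighbours with overlapping SDs. With the gene lengths that the authors list, the middle of the Ctrl order changed: Klrd1 (126), Klre1 (105), Klrb1c (83.4), Klrk1 (58.0), Klrc1 (37.5) and Klrc2 (15.6). In cKO these lengths put Klre1 (153.9) and Klrb1c (145.5) ahead of Klrd1 (108). Klrb1b and Klrg1 were last in both groups with both lengths.

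Of the other killer lectin-like receptor genes, 6 were in the table and tested. Without the block limma called 0 of them (2 at an unadjusted p below 0.05), edgeR's quasi-likelihood test 0 and DESeq2 2. With it 2 rose in limma, both of the NKR-P1 group. Klrb1f, whose product reads Clec2i, was at 14.4, 10.1 and 16.2 CPM in Ctrl and 29.8, 45.7 and 37.5 CPM in cKO. All 3 cKO libraries were above all Ctrl libraries, and the log2 difference was 1.41 (limma adjusted p = 0.0616 without the block and 0.00752 with it). In the authors' deposited table Klrb1f had a log2 fold change of 1.54 and an adjusted p of 0.000414. Klrb1a, an activating NKR-P1 receptor, was at 4.19, 5.04 and 5.59 CPM in Ctrl and 6.80, 11.97 and 12.2 CPM in cKO (log2 difference 0.90, limma adjusted p = 0.507 without the block and 0.0362 with it). Klrc3, which shares windows with Klrc1 and Klrc2, was at 34.0, 38.6 and 16.1 CPM in Ctrl and 34.9, 16.9 and 10.7 CPM in cKO. Its log2 difference was -0.55, and it did not pass in either fit (limma adjusted p = 0.310 with the block). For the 8 receptors the adjusted p in the authors' deposited table was 0.166 for Klrc1, 0.556 for Klre1 and 0.99998 for the other 6.

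The adaptors that carry the signal of activating receptors differed among themselves. Tyrobp (DAP12), which pairs with NKG2C and several Ly49 receptors, was at 13.02, 10.04 and 8.52 CPM in Ctrl and 51.7, 31.4 and 30.7 CPM in cKO. It rose by a log2 difference of 1.73 with no overlap (limma adjusted p = 0.0410). Without the block, edgeR's quasi-likelihood test gave Tyrobp an adjusted p of 0.0775, short of the threshold. Fcer1g, the common Fc receptor gamma chain through which NK1.1 signals, was at 134, 122 and 136 CPM in Ctrl and 89.4, 77.2 and 97.5 CPM in cKO. It had a log2 difference of -0.57 (limma adjusted p = 0.129 without the block and 0.00883 with it). Hcst and Cd247 did not pass, with log2 differences of -0.057 and 0.18.

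Of the ligands of these receptors, 10 were tested and 1 passed in limma, with and without the block. Cdh1, the E-cadherin that KLRG1 binds, was at 258, 261 and 193 CPM in Ctrl and 2.91, 3.62 and 0.822 CPM in cKO. It was lower by a log2 difference of -6.20 (limma adjusted p = 0.00215). H2-T23, the Qa-1 gene read by CD94 with NKG2A or NKG2C, was at 588, 593 and 715 CPM in Ctrl and 733, 745 and 777 CPM in cKO. The groups did not overlap, but H2-T23 did not pass in limma (log2 difference 0.26, adjusted p = 0.740 without the block and 0.159 with it). DESeq2 called it with the block only (adjusted p = 0.0117). The Clec2 ligands Clec2d and Clec2i had log2 differences of 0.50 and 0.77 and did not pass in limma or edgeR, with or without the block. DESeq2 called Clec2i (adjusted p = 0.0181 without the block and 0.00605 with it). NKG2D ligands were low. Over all libraries Raet1e was at 0 to 3.29 CPM, H60b at 0.441 to 3.02 CPM and Ulbp1 at 2.91 to 5.97 CPM.

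**Figure D5:**
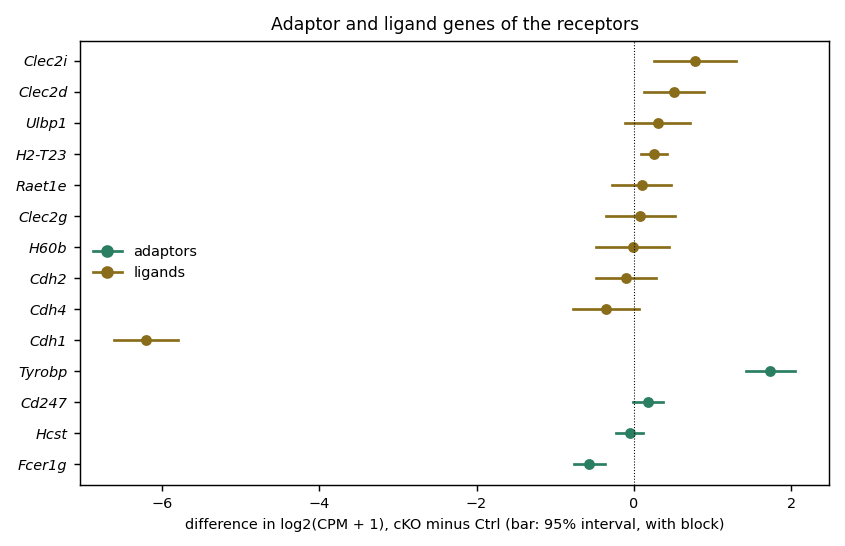
Log2 difference, cKO minus Ctrl, of log2(CPM + 1) for adaptor genes (green) and ligand genes (brown), with 95% intervals from the fit with the replicate block (horizontal axis, 0 dotted). Tyrobp lies at 1.73 and Fcer1g at -0.57, and Cdh1 lies far to the left at -6.20.

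Of 16 kinases, phosphatases and linkers downstream of the receptors, limma called 0 without the block (2 at an unadjusted p below 0.05) and 2 with it, and of the tools on recovered reads, again without it, edgeR called 0 and DESeq2 3. Fyn, a kinase that acts early in receptor signalling, had a log2 difference of 0.42 (adjusted p = 0.0144 with the block). Ptpn6, the phosphatase SHP-1 recruited by inhibitory receptors such as NKG2A, had -0.42 (adjusted p = 0.0205 with the block). Of 10 NK receptors of other families, Cd7 fell, at -0.83 (limma adjusted p = 0.0164). In limma with the block Cd244 (2B4) at -1.71 and Cd96 at -0.49 also passed as lower, and Cd226 (DNAM-1) at 0.52 as higher. Without the block edgeR called 0 of these 10 and DESeq2 4. Of 16 tested transcription factors of NK receptor-bearing lymphocytes, Runx1 rose from 41.7, 46.5 and 49.8 CPM in Ctrl to 80.7, 91.0 and 88.9 CPM in cKO (log2 difference 0.90, limma adjusted p = 0.0189). Runx3 had the opposite sign, at 206, 226 and 208 CPM in Ctrl and 179, 181 and 170.4 CPM in cKO, with no overlap. Its log2 difference was -0.27 and it did not pass in limma (adjusted p = 0.464 without the block and 0.158 with it), whereas DESeq2 called it without the block (adjusted p = 0.0115) and not with it (0.231). Without the block, edgeR called 0 of these factors and DESeq2 3, Runx1, Runx3 and Tcf7. In limma Tcf7 passed with the block (0.47, adjusted p = 0.0239) and Tbx21 did not (0.28, adjusted p = 0.0771), whereas DESeq2 with the block called Tbx21 (adjusted p = 0.00783).

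Genes with the most similar pattern over the 6 libraries were taken by Pearson correlation of log2(CPM + 1) among 10134 genes that averaged 5 CPM or more. These values describe 6 libraries that share 3 replicate numbers and carry no p. Klrc2 was most like Nudt22 (0.982) and the Ly49 genes Klra9 (0.966) and Klra3 (0.965). Klrg1 was most like Kbtbd11 (0.995), Emb (0.993) and Gpnmb (0.991), and Klre1 like Ppp2r5d (0.995), Rcbtb1 (0.984) and Nfyc (0.983). For Klrc1 the nearest were 1810041H14Rik (0.987), Zbtb14 (0.984) and Oxsr1 (0.982). Among the 3 nearest to Klrb1c were Ubxn8 (0.966) and Ngly1 (0.964). For Klrb1b they were Tmsb15l (0.984), Ptp4a2 (0.982) and Crls1 (0.967), for Klrd1 Zfp938 (0.991), Pcyox1 (0.991) and Cog6 (0.986), and for Klrk1 Rbm12b1 (0.986), Hdac8 (0.984) and Ccdc71l (0.972). Of the 10 Ly49 genes tested, limma called 0 without the block (1 at an unadjusted p below 0.05), edgeR's quasi-likelihood test 0 and DESeq2 1. With the block limma called 1, Klra5, as lower, at 122, 165 and 237 CPM in Ctrl and 34.7, 54.9 and 74.7 CPM in cKO.

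Markers of other cell types were examined for the same libraries. The 6 conventional NK cell markers summed to 391 to 492 CPM in Ctrl and 314 to 430.3 CPM in cKO, of which Gzma and Prf1 made up most. Of the 5 that were tested, limma called 0 without the block (2 at an unadjusted p below 0.05), edgeR 0 and DESeq2 0. With the block limma called 1 as higher: Irf8, a transcription factor, was at 41.9, 47.3 and 69.5 CPM in Ctrl and 69.9, 81.7 and 105 CPM in cKO (log2 difference 0.70, adjusted p = 0.00498). Gzma had a log2 difference of -1.55 and did not pass. The 5 listed iNKT2 markers summed to 404 to 549.5 CPM in Ctrl and 358 to 541 CPM in cKO, and in limma with the block Il4 passed as lower (-0.88) and Plac8 as higher (1.29). Of the iNKT1 markers, the chemokine gene Xcl1 fell with a log2 difference of -0.97 (limma adjusted p = 0.0281). With the block Ccl5 (1.14) and Il2rb (0.34) also passed in limma, as higher. Without it edgeR called 0 of the 8 iNKT1 markers and DESeq2 3. Sums of B cell, myeloid, iNKT17, erythroid and double-positive thymocyte markers lay at or under 16.1 CPM in every library. The 4 epithelial and stromal genes in the table summed to 32.5 to 41.1 CPM in Ctrl and 56.3 to 73.7 CPM in cKO. Among them Pecam1, which T cells can also express, rose with a log2 difference of 1.07 (limma adjusted p = 0.0423). Without the block edgeR called 0 of the 4, whereas DESeq2 called Pecam1. The part of other cells in the receptor levels was not tested.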

How the data were processed

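Thymic iNKT1 RNA of 3 Ctrl and 3 cKO libraries was read on a NextSeq 500 in reads of 75 bases, per the labels. Per the submitters' processing notes, Trimmomatic 0.33, STAR 2.5.2, HTSeq 0.6.1 and edgeR were used, with mm10. The authors deposited 1 table of CPM per library together with, per the file headers, 2 log2 columns (fold change and average CPM), a likelihood-ratio score, and the p-value of each gene before and after adjustment. Its columns named WT and KO were taken as Ctrl and cKO, the only groups of the series, and matched by replicate number. Whether counting used strand is not given in the sources used here. The CPM were whole multiples of 1 read (100% of values within 0.02 of a whole read), so reads were recovered. The listed genes held 99.4% to 99.9% of each library total.

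The main test was limma 3.58.1 with trend and robust moderation on log2(CPM + 1) of the 15691 genes averaging 1 CPM or more, two-sided, with Benjamini-Hochberg adjustment over all of them. Alternatives were edgeR 4.0.16 and DESeq2 1.42.0 on the recovered reads, limma-voom, other scalings, pseudocounts of 0.5 and 5, other filters, a replicate block and leaving out libraries. The scripts were tested on simulated data. Deviations of same-numbered libraries from their group means correlated at 0.855, 0.687 and 0.924 for replicates 1, 2 and 3. The numbers, which come from the sample titles, were taken to pair the libraries. What they stand for is not given in the sources used here. Ctrl replicate 2 correlated slightly better with cKO replicate 1 (0.718) than with its own number, and Ctrl replicate 1 with cKO replicate 2 gave 0.578. The correlations thus set replicate 3 apart but do not settle how replicates 1 and 2 pair.

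The receptors and gene lists were chosen with earlier results of these data known. All 8 receptors and Tgfbr2 were named whatever their result. Other genes were named from the lists where they passed the threshold with or without the block, or where the list has up to 5 genes, and the 3 most similar patterns per receptor were found, of which 1 gene is not reported here. Further genes named with values were chosen after those values were seen: Klrc3, Klri1, Klri2, H2-T23, Clec2d, Clec2i, the NKG2D ligands, Tbx21, Runx3 and Klra5. So were the marker genes and the genes low in Ctrl replicate 2. Reads carried no molecular identifiers, so depth describes counting error only. Shared windows and exon lengths came from GENCODE M21.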

Additional observations from a re-analysis of the deposited data

How the results depend on the processing

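Across the table limma called 104 genes without a block. It called 61 with voom weights, 26 at an adjusted p of 0.01, 291 in replicates 1 and 2 alone and 0 in replicates 1 and 3 alone, where 402 had an unadjusted p below 0.05. edgeR's quasi-likelihood test called 41 and DESeq2 552. Leaving out one library gave 14 (without Ctrl replicate 2) to 85 (without cKO replicate 3) genes. With the replicate block the count was 451 in limma, 469 in edgeR's quasi-likelihood test, 706 in DESeq2, 514 with TMM scaling and 502 with upper quartile scaling. It was 943, 387 and 388 with the block in replicates 1 and 2, 1 and 3, and 2 and 3 alone, where 1 residual degree of freedom per gene is left. Genes higher in cKO made up 30.8% of calls without the block, 43.0% with it and 51.6% with TMM scaling and the block. The fits on pairs of replicates with the block, that on replicates 1 and 3, and the scalings with the block were added after the data were seen.

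None of the 8 receptors was called in the fits without a block, except by DESeq2 (2), and leaving out any library gave 0 in limma (1 to 3 at an unadjusted p below 0.05). With the replicate block limma called 2, edgeR's quasi-likelihood test 2, DESeq2 3, TMM scaling 3 and upper quartile scaling 3, and the block on replicates 1 and 2, 1 and 3, and 2 and 3 alone called 1 (Klrk1), 2 (Klrc1 and Klrg1) and 1 (Klre1). Klre1 passed in all 5 block fits on all libraries, and Klrg1 and Klrk1 in 4 of them each. The block changed no other receptor's call on all libraries. Klrc2 alone changed sign, to -0.015 in edgeR, -0.013 in DESeq2 and -0.46 in replicates 1 and 3 with and without the block, and it ran from -0.42 (without Ctrl replicate 2) to 0.44 when one library was left out. The other 7 receptors kept their direction under every alternative run. Klrg1 was not tested at a mean of at least 5 CPM. At its level of 54 to 298 reads, counting error adds to the spread.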

Other observations

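Ctrl replicate 2 was also low for genes other than receptors. The other 24 genes that were at least 1 log2 unit lower there included the mitotic kinase gene Plk1, at 8.21, 4.58 and 13.4 CPM in Ctrl (in the order of replicate numbers) and 4.09, 10.6 and 22.5 CPM in cKO. They also included Aurkb, a kinase of chromosome segregation, at 8.12, 4.29 and 12.7 CPM in Ctrl and 1.94, 9.97 and 18.6 CPM in cKO. Smad4, the common partner of TGF-beta SMAD proteins, was at 139, 41.4 and 62.6 CPM in Ctrl and 97.1, 94.4 and 69.0 CPM in cKO. For Plk1 and Aurkb the lowest library of all 6 was cKO replicate 1, whereas for Smad4 it was Ctrl replicate 2. These genes were picked after their values were seen.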
